A study of Mus musculus with 18 samples.

Results

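Transcripts of 6 genes that define what a neuron releases were followed through the hippocampus of trained and untrained mice. They are the vesicular glutamate transporter genes *Slc17a7*, *Slc17a6* and *Slc17a8* (VGLUT1, VGLUT2 and VGLUT3), the vesicular GABA transporter gene *Slc32a1* (VGAT), and *Gad1* and *Gad2*, which encode the GABA-synthesizing enzymes GAD67 and GAD65. All 6 are among the 15329 genes of the expression table. The set was put together by function, with earlier results of these data known. *Slc17a8* was chosen by its measured values: it was lower after original learning in WT mice and in untrained *Ccny* KO mice than in untrained WT mice. Its values in every comparison that uses one of those 3 groups are therefore given as a description without a test. The other 5 genes were tested in every comparison.

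A neuron is glutamatergic when it loads synaptic vesicles with glutamate through a VGLUT, and GABAergic when it makes GABA with GAD and loads it through VGAT. Both kinds of transporter are driven by the proton gradient of the vesicle. In the hippocampus VGLUT1 is the transporter of pyramidal and granule cells, whereas VGLUT2 is known mainly from terminals of subcortical afferents, whose cell bodies lie outside, and from a few local cell types such as Cajal-Retzius cells. VGLUT3 is found in neurons that release another transmitter as well, including a class of cholecystokinin basket cells in the hippocampus and serotonergic neurons of the raphe. GAD67 is held to supply most GABA of the brain, and GAD65 is associated with the synaptic terminal.

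Total RNA came from the hippocampus of C57BL/6J mice aged 8 to 10 weeks, with 3 mice in each of 6 groups and 1 library per mouse. WT and *Ccny* KO mice, the latter knocked out for the cyclin gene *Ccny*, were untrained (WT_Basal and KO_Basal), had been trained to find the platform of a Morris water maze (WT_OL and KO_OL, original learning), or had gone through original learning and then a moved platform (WT_RL and KO_RL, reversal learning). No group carried any further allele or agent. Trained mice differ from Basal mice by the whole maze procedure, and whole tissue mixes all its cells, so fewer cells of a type and less RNA per cell cannot be told apart here.

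The libraries held 29248557 to 37915576 reads on the genes of the table, so that 1 read was worth 0.0274 to 0.0333 CPM, the TMM-normalized unit used here. *Ccny* was lower in each KO library (74.0 to 95.8 CPM) than in each WT library (107 to 158 CPM), the direction of the labels, although most of the signal remained: the KO_Basal mean was 0.593 of the WT_Basal mean. Which part of the gene was disrupted is not given in the sources used here. Some libraries stood apart in ways that touch the values below. Genes rich in G and C were relatively higher in the 12 libraries of trained mice than in the 6 Basal libraries. The slope of a library's deviation from the mean of all libraries on transcript GC content lay between -0.168 and -0.107 log2 units per 10 percentage points in Basal libraries and between -0.0105 and 0.194 in trained ones, with the highest value in WT_OL replicate 2. Markers of neighbouring brain regions also varied. *Foxb1*, a transcription factor gene of the mammillary hypothalamus and thalamus, was at 4.13 CPM in KO_Basal replicate 1, 1.41 CPM in WT_RL replicate 2 and 2.42 CPM in WT_RL replicate 3, and at 0.0333 CPM or less in the other 15 libraries. The summed level of 10 striatal markers, such as *Drd2* and *Adora2a*, was above 400 CPM in 6 libraries, namely WT_Basal replicates 1 and 3, KO_OL replicates 2 and 3, and KO_RL replicates 1 and 3. That of 16 choroid plexus markers, such as *Ttr*, was 245 to 1169 CPM in KO_Basal and 1492 to 6626 CPM in WT_Basal. It was 3223 to 5022 CPM in WT_OL and 226 to 13045 CPM in WT_RL. KO_OL had 3729 to 7134 CPM and KO_RL 2169 to 7893 CPM. Of the 16, limma called 15 higher in KO_OL than in KO_Basal, where 11.2% of all genes rose, and voom called 3. The part of choroid plexus tissue in the values below was not tested.

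The genes lie on 3 chromosomes of GRCm38 (mm10). *Slc17a7* (chr7:45163949-45176142) and *Slc17a6* (chr7:51622006-51671119) are on the forward strand of chromosome 7, and *Slc17a8* (chr10:89574020-89621253) is on the reverse strand of chromosome 10. *Gad2* (chr2:22622205-22693874), *Gad1* (chr2:70553072-70602014) and *Slc32a1* (chr2:158610767-158615748) are all on the forward strand of chromosome 2, far apart. The longest transcripts of *Slc32a1* and *Slc17a7* have the highest GC content of the 6, 61.9% and 56.6%, and the other 4 lie between 42.9% and 47.3%. Exons of *Slc32a1* overlap those of the antisense gene *Gm14205*. The strand setting of the counting is not given in the sources used here, so reads of this pair may have been shared and *Slc32a1* values are uncertain to that extent.

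Promoter sequence is shown for *Gad1* and *Gad2*, the pair with the highest r over all 18 libraries, for *Slc17a8*, by which the set was chosen, and for *Slc17a7*, which was called after learning in KO mice. Each line gives, 5′ to 3′ on the strand of the gene, the part of the 250 bases before the RefSeq start site (GRCm38.p6) that lies outside annotated exons. Capitals mark matches on either strand to TGACG (the core of a CRE), GGGCGG (a GC box), CCAAT or TATAAA, where a match to the other strand appears as its reverse complement.
Gad1, chr2:70561879-70562041, forward strand: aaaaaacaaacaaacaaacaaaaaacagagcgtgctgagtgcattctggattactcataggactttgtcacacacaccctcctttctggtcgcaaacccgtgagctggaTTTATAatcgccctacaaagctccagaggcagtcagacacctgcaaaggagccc
Gad2, chr2:22622077-22622204, forward strand: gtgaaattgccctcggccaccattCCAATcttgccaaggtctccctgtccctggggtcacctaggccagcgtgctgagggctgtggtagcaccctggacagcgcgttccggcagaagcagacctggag
Slc17a8, chr10:89621254-89621499, reverse strand: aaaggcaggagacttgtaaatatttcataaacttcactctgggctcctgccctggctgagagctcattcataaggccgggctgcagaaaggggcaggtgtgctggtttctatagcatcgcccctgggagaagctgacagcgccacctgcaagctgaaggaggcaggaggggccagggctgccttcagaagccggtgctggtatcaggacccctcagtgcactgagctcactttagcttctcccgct
Slc17a7, chr7:45163671-45163920, forward strand: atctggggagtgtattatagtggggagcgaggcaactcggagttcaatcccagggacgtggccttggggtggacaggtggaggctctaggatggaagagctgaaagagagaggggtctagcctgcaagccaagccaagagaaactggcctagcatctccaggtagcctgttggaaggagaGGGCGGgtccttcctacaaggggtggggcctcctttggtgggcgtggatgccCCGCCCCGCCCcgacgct

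The 250-base window of *Slc17a7* held GGGCGG at 3 positions, 13, 18 and 70 bases before the start site, the first 2 of them on the other strand and running into each other in the printed line. *Gad1* held TATAAA on the other strand 141 bases before its start site, and a GGGCGG close to the start site that lies in the unprinted part. *Gad2* held CCAAT 226 bases before its start site and, again in the unprinted part, TGACG on the other strand. None of the 4 motifs was found in the window of *Slc17a8*. Of 32851 RefSeq mouse promoters, 17.8% held TGACG, 32.7% GGGCGG, 33.8% CCAAT and 12.4% TATAAA in a window of the same length. No motif of the 4 was found in both the *Gad1* and the *Gad2* window.

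**Figure D1:**
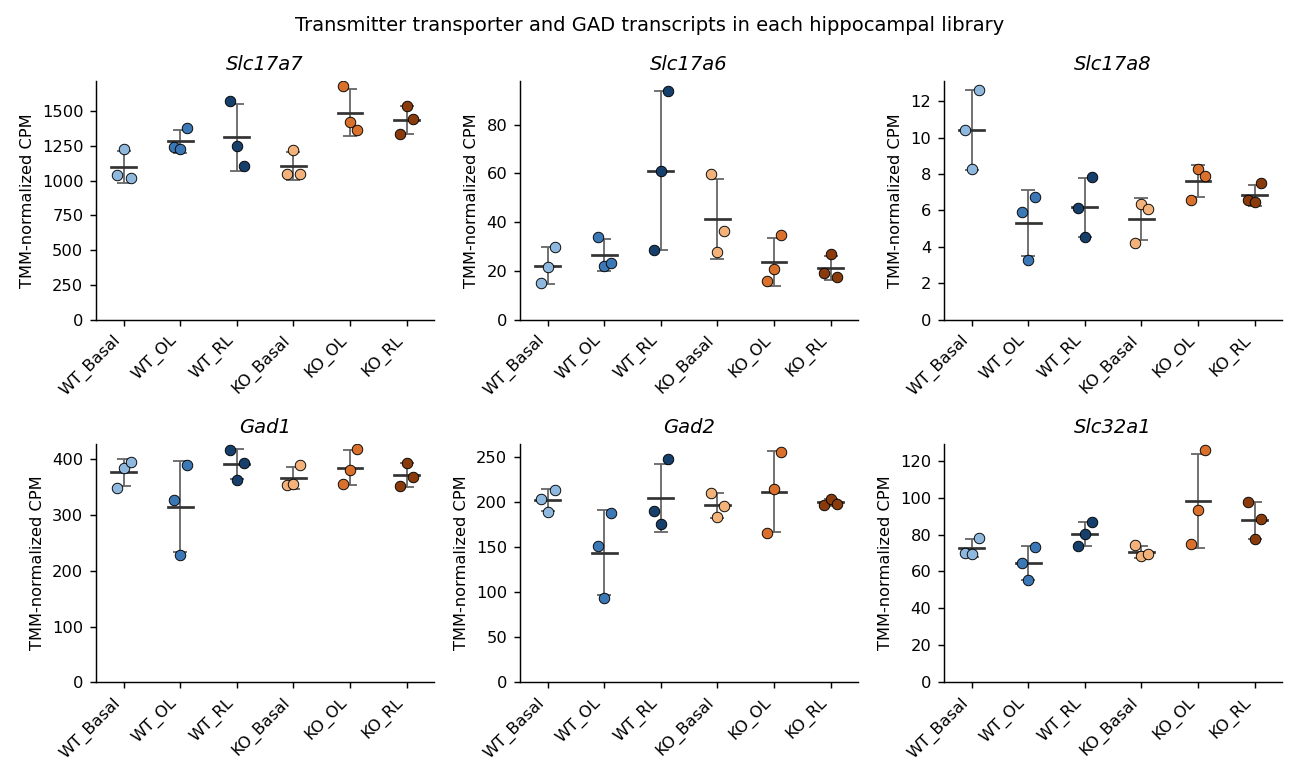
TMM-normalized CPM (vertical axes, linear, from 0) of the 6 genes in each of the 18 libraries, by group. Points are libraries, horizontal bars are group means and error bars are the SD of 3 mice. *Slc17a8* is highest in the 3 WT_Basal libraries apart from an overlap with KO_OL, *Slc17a6* spreads from 28.4 to 93.9 CPM within WT_RL, and 1 WT_OL library is low for all 3 GABA genes.

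Levels can be compared between genes only per transcript length. In CPM per kilobase of the longest transcript, the medians over 18 libraries were 405 for *Slc17a7*, 104 for *Gad1*, 34.2 for *Gad2*, 26.7 for *Slc32a1*, 6.59 for *Slc17a6* and 1.48 for *Slc17a8*. This order held between neighbours in 18 of 18 libraries, except that *Gad2* was above *Slc32a1* in 15 of 18. The ratio of *Gad2* to *Slc32a1* per length ran from 0.821 to 1.41 with a median of 1.25, and the order of these neighbours was not tested. Of the summed per-length level of the 3 VGLUT genes, *Slc17a7* held a median of 98.3% (93.6% to 99.0%), *Slc17a6* 1.31% (0.688% to 5.90%) and *Slc17a8* 0.343% (0.180% to 0.830%). The tissue label was met: *Slc17a7* and 15 markers of hippocampal excitatory neurons (summed level 4955 to 6492 CPM) were high in every library.

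The 6 genes differed in how much mice of a group varied. The pooled within-group SD on the log2 scale was 0.16 for *Slc17a7*, 0.18 for *Gad1*, 0.20 for *Slc32a1*, 0.27 for *Gad2*, 0.29 for *Slc17a8* and 0.54 for *Slc17a6*. Genes within 1.5-fold of the same mean level had a median SD of 0.14, 0.13, 0.12, 0.13, 0.16 and 0.12 in the same order. *Slc17a6* was thus the most variable of the set among mice of the same group. Reads were not scarce for it: between 448 and 3100 reads per library fell on *Slc17a6*, against 110 to 397 on *Slc17a8*, where counting alone gives an error of 5.02% to 9.53%.

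*Slc17a7*, the VGLUT1 gene of hippocampal principal cells, rose in *Ccny* KO mice after training. It was at 1047, 1222 and 1047 CPM in the 3 KO_Basal mice, 1684, 1421 and 1366 CPM in the 3 KO_OL mice, and 1334, 1537 and 1448 CPM in the 3 KO_RL mice. Every trained KO mouse was above every untrained one. In WT mice it was at 1038, 1231 and 1022 CPM in WT_Basal, 1243, 1232 and 1378 CPM in WT_OL, and 1578, 1253 and 1109 CPM in WT_RL. The WT_OL mice lay just above the WT_Basal mice, and WT_RL overlapped with them. The log2 difference was 0.43 (standard error 0.13, adjusted p = 0.0244, limma) for KO_OL against KO_Basal and 0.38 (adjusted p = 0.0410, limma) for KO_RL against KO_Basal. In WT it was 0.23 (adjusted p = 0.275, limma) for WT_OL and 0.25 (adjusted p = 0.205) for WT_RL against WT_Basal. The genotypes did not differ detectably in the change with original learning, with a log2 difference of 0.20 (95% interval -0.19 to 0.58, adjusted p = 0.594), and averaged over genotypes *Slc17a7* rose by 0.33 (adjusted p = 0.0121, limma). After correction of each library for GC content, these 3 called *Slc17a7* differences were 0.31 (adjusted p = 0.146), 0.27 (adjusted p = 0.196) and 0.20 (adjusted p = 0.189), and none was called. The call of KO_OL was lost without KO_Basal replicate 1 or 3 or KO_OL replicate 1 (adjusted p = 0.0760 to 0.114). That of KO_RL was lost without KO_Basal replicate 1 or 3, any KO_RL replicate, KO_OL replicate 2, WT_Basal replicate 1 or WT_OL replicate 1 (adjusted p = 0.0503 to 0.136).

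*Slc17a6*, the VGLUT2 gene, was high in a few libraries of different groups. It was at 14.9, 21.4 and 30.0 CPM in WT_Basal, 34.05, 21.8 and 23.3 CPM in WT_OL, and 28.4, 61.0 and 93.9 CPM in WT_RL. In KO mice it was at 59.7, 27.9 and 36.3 CPM in KO_Basal, 15.7, 20.6 and 34.6 CPM in KO_OL, and 19.1, 26.7 and 17.6 CPM in KO_RL. The 3 highest libraries, 1 of KO_Basal and 2 of WT_RL, were the 3 libraries with *Foxb1* above 1 CPM. The log2 difference of *Slc17a6* between WT_RL and WT_Basal was 1.32 (adjusted p = 0.0285, standard error 0.38, limma), although WT_RL replicate 1 lay within the WT_Basal range. Without the 3 libraries with *Foxb1* above 1 CPM, an alternative chosen after seeing the data, the difference was 0.40 (adjusted p = 0.594) and rested on 1 WT_RL mouse, assumed to vary like the other groups. It was 0.94 (adjusted p = 0.108) without WT_RL replicate 3, 1.25 (adjusted p = 0.0853) without WT_RL replicate 2, 1.08 (adjusted p = 0.131) without WT_Basal replicate 1, and 1.33 (adjusted p = 0.0639) without WT_Basal replicate 2.

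In the other direction, *Slc17a6* was lower in KO_RL than in WT_RL by a log2 difference of -1.35 (95% interval -2.16 to -0.54), with adjusted p = 0.625 by limma over all genes. All 3 KO_RL mice were below all 3 WT_RL mice, but the share of all genes without overlap was not computed for this comparison, so nothing is read from it. That difference was -0.43 without the libraries with *Foxb1* above 1 CPM and -1.81 (adjusted p = 0.0350) without WT_RL replicate 1. For KO_Basal against WT_Basal the *Slc17a6* difference was 0.85 (adjusted p = 0.994, limma), and 0.56 without KO_Basal replicate 1. For KO_RL against KO_Basal it was -0.88 (adjusted p = 0.106), with every KO_RL mouse below every KO_Basal mouse, and -0.59 (adjusted p = 0.366) without KO_Basal replicate 1. It passed with library weights (-0.998, adjusted p = 0.0141) and when only those 2 groups were fitted (adjusted p = 0.0305). In the fit of all 18 libraries without weights, the only called difference of *Slc17a6* was that of WT_RL against WT_Basal.

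Markers of brain regions that use VGLUT2 were high in some of the libraries with high *Slc17a6*. The 3 highest *Tcf7l2* libraries include 2 of the 3 highest for *Slc17a6*, and KO_OL replicate 3, with the highest thalamic and habenular sum (406 CPM), had *Slc17a6* at 34.6 CPM. *Tcf7l2*, a thalamic and habenular transcription factor gene, was at 11.6 CPM in WT_RL replicate 2, 21.98 CPM in WT_RL replicate 3 and 10.9 CPM in KO_OL replicate 3, and at 2.79 to 5.91 CPM in the other 15 libraries. KO_Basal replicate 1 instead had the hypothalamic peptide genes *Hcrt* at 25.0 CPM and *Pmch* at 52.6 CPM. These 2 were at or below 0.445 and 1.11 CPM in the other libraries. The 15 thalamic and habenular markers together were at 199 to 406 CPM, and 15 listed hypothalamic markers at 11.9 to 148.9 CPM, with *Hcrt* at 0 in 8 libraries and *Foxb1* in 10. By group, the thalamic and habenular sum ran from 227 to 258 CPM in WT_Basal and from 237 to 349 CPM in WT_RL. Members of that list did not all follow *Tcf7l2*. *Rora*, *Lef1*, *Plekhg1*, *Pou4f1* and *Synpo2* also peaked in WT_RL replicate 3, where *Tac2* was lowest. *Gbx2*, *Prkcd*, *Zic1* and *Calb2* peaked in KO_OL replicate 3, and *Tac2* and *Ntng1* in KO_Basal replicate 1. *Rgs16* peaked in WT_RL replicate 2, *Nwd2* in WT_RL replicate 1 and *Gng8* in WT_OL replicate 1.

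Over 18 libraries *Slc17a6* correlated with the mean log2 level of Cajal-Retzius markers with r = 0.685 (permutation p = 0.00196, adjusted 0.0470) and rho = 0.470 (permutation adjusted p = 0.197). Leaving out the 2 libraries farthest from the median of the markers gave r = 0.524. With thalamic and habenular markers r was 0.623 (permutation p = 0.00691, adjusted 0.0553) and rho 0.527 (permutation p = 0.0266, adjusted 0.195), or r = 0.438 without the 2 farthest libraries. With hypothalamic markers r was 0.498 (permutation p = 0.0544, adjusted 0.232) and rho 0.509, or r = 0.293 without the 2 farthest. Lists of other cell types gave similar values, with r = 0.471 for astrocytes (adjusted permutation p = 0.232; r = 0.526 without the 2 farthest) and r = 0.413 for serotonergic neurons (adjusted permutation p = 0.232; r = 0.824 without the 2 farthest). By r over all libraries only the Cajal-Retzius relation passed after adjustment, and by rho none of the 12 lists did. With group means removed the Cajal-Retzius r was 0.776 and did not pass (permutation adjusted p = 0.169). P-values were adjusted over 24 relations. The thalamic and Cajal-Retzius lists share the marker *Calb2*. The Cajal-Retzius genes *Lhx5*, *Ebf3* and *Lhx1* peaked in WT_RL replicate 3 at 2.24, 15.3 and 2.09 CPM, the library with the highest *Slc17a6* and *Tcf7l2*. The other genes of that list did not: *Trp73* and *Calb2* peaked in KO_OL replicate 3, and *Reln* and *Ndnf* in KO_Basal replicate 3. *Ndnf* had its lowest value, 13.2 CPM, in WT_RL replicate 3. How far tissue from these regions contributes to the *Slc17a6* differences was not tested.

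**Figure D2:**
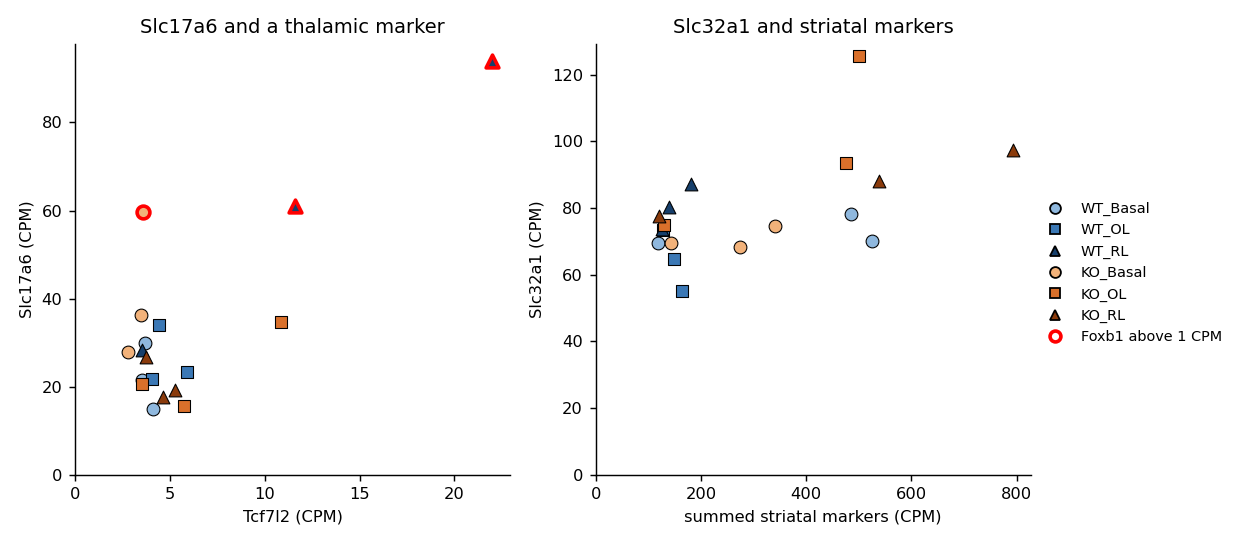
Left, *Slc17a6* against the thalamic marker *Tcf7l2*, both in CPM. Right, *Slc32a1* against the summed CPM of 10 striatal markers. Each symbol is a library, coloured by group, and red outlines mark the 3 libraries with *Foxb1* above 1 CPM, which are the 3 highest for *Slc17a6* (59.7, 61.0 and 93.9 CPM). The highest *Slc32a1* value, 126 CPM, is from KO_OL replicate 3, with 500.4 CPM of striatal markers.

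*Slc17a8*, the VGLUT3 gene, was at 10.4, 8.26 and 12.6 CPM in WT_Basal and at 4.23, 6.33 and 6.08 CPM in KO_Basal. It was at 5.93, 3.26 and 6.71 CPM in WT_OL and at 6.15, 4.55 and 7.81 CPM in WT_RL. In trained KO mice it was at 6.59, 8.28 and 7.91 CPM in KO_OL and at 6.55, 6.44 and 7.49 CPM in KO_RL. Apart from 8.28 CPM in KO_OL replicate 2, which was just above the lowest WT_Basal mouse, the 3 WT_Basal libraries were the highest of all. The groups KO_Basal, WT_OL and WT_RL did not overlap with WT_Basal, which held for 14.7%, 28.3% and 34.3% of all genes. Ranked by group mean the order was WT_Basal (10.4 ± 2.19 CPM, SD, n = 3), KO_OL (7.59 ± 0.884), KO_RL (6.83 ± 0.574), WT_RL (6.17 ± 1.63), KO_Basal (5.55 ± 1.15) and WT_OL (5.30 ± 1.81), and each group overlapped with the next.

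As a description of what chose the gene, *Slc17a8* differed from WT_Basal by -0.89 in WT_OL and -0.80 in KO_Basal on the log2(CPM + 1) scale. For WT_RL against WT_Basal, which shares those control mice, the difference was -0.68. In KO mice the direction was the other way, with 0.40 for KO_OL and 0.27 for KO_RL against KO_Basal. Every trained KO mouse was above every untrained one, where 48.8% (KO_OL) and 45.3% (KO_RL) of all genes did not overlap. No threshold on these values set the choice of members. Only comparisons among trained groups that did not choose the gene could be tested. *Slc17a8* differed by -0.13 between KO_RL and KO_OL (95% interval -0.58 to 0.32, adjusted p = 0.9996, limma) and by 0.15 between KO_RL and WT_RL (95% interval -0.30 to 0.60, adjusted p = 0.986, limma), both within the spread between mice. The lower value after original learning rested partly on WT_OL replicate 2: without it the difference from WT_Basal was -0.63. It was -0.75 after GC correction.

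The 7 markers of cholecystokinin basket cells, *Cck*, *Cnr1*, *Htr3a*, *Sncg*, *Adarb2*, *Npas1* and *Krt73*, summed to 412 to 482 CPM in WT_Basal, 422 to 489.7 CPM in WT_OL, 377 to 489 CPM in WT_RL, 407 to 446 CPM in KO_Basal, 429 to 495 CPM in KO_OL and 410 to 508 CPM in KO_RL. In WT_OL and KO_Basal against WT_Basal limma and voom called 0 of the 7, 1 and 0 had an unadjusted p under 0.05, and the median log2 differences were -0.30 and -0.12. For WT_RL against WT_Basal the median was -0.08, and against KO_Basal it was 0.08 for KO_OL and 0.06 for KO_RL. In the same order, the 26 interneuron markers gave medians of -0.13, 0.04, -0.10, 0.08 and 0.01. All of these comparisons use Basal mice whose values chose *Slc17a8*. The correlation of these markers with *Slc17a8* was r = 0.270 (rho = 0.0898). The part of such cells in the *Slc17a8* values was not tested. The sum is carried by *Cck* and *Cnr1*, which other cells also express. Of the serotonergic markers, *Tph2* was at 1.04 to 4.40 CPM, and *Slc6a4* was at 0 in 3 libraries and above 1 CPM only in WT_Basal replicate 1. With 8 astrocyte markers *Slc17a8* gave r = -0.632 and rho = -0.602 over the 18 libraries, the largest of the 12 lists, but r = -0.351 without the 2 farthest libraries. With 8 microglial markers r was -0.451, and -0.553 without the 2 farthest. These correlations are descriptions, since the libraries that chose *Slc17a8* are among the points.

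*Slc32a1*, the VGAT gene, rose in KO mice after original learning. It was at 74.5, 68.3 and 69.4 CPM in KO_Basal, 75.0, 93.5 and 126 CPM in KO_OL, and 97.5, 77.5 and 88.2 CPM in KO_RL. In WT mice it was at 70.2, 69.6 and 78.2 CPM in WT_Basal, 64.8, 55.2 and 73.4 CPM in WT_OL, and 73.8, 80.2 and 87.0 CPM in WT_RL. All trained KO mice were above all KO_Basal mice, though KO_OL replicate 1 only just, while WT_OL and WT_Basal overlapped. The log2 difference of KO_OL from KO_Basal was 0.44 (standard error 0.14, adjusted p = 0.0391, limma) and that of KO_RL from KO_Basal 0.30 (adjusted p = 0.143). The first was 0.24 (adjusted p = 0.211) without KO_OL replicate 3, 0.28 (adjusted p = 0.213) after GC correction, and 0.08 (adjusted p = 0.813) without the 6 libraries with striatal markers above 400 CPM, which leaves 1 KO_OL mouse. It was also not called without KO_Basal replicate 1, 2 or 3, KO_OL replicate 2 or KO_RL replicate 3 (adjusted p = 0.0502 to 0.106). Between genotypes after original learning all KO_OL mice were above all WT_OL mice, by 0.58 on the log2 scale (95% interval 0.27 to 0.88, adjusted p = 0.125, limma). This *Slc32a1* difference passed with library weights (0.59, adjusted p = 0.00119) and without WT_OL replicate 3 (0.67, adjusted p = 0.0135), and not under the other alternatives, among them 0.38 (adjusted p = 0.322) without KO_OL replicate 3.

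The striatum consists largely of GABAergic projection neurons. The sum of its 10 markers was at 128 to 164 CPM in WT_OL and 126 to 181 CPM in WT_RL, but reached 525 CPM in WT_Basal, 342 CPM in KO_Basal, 500.4 CPM in KO_OL and 793 CPM in KO_RL. Over the 18 libraries *Slc32a1* correlated with the mean log2 level of the 10 striatal markers with r = 0.552 (rho = 0.432; r = 0.455 without the 2 farthest libraries), and with that of 26 interneuron markers with r = 0.582 (rho = 0.478; r = 0.639 without the 2 farthest). With group means removed, *Slc32a1* gave r = 0.628 with the striatal and 0.513 with the interneuron markers. For *Gad2* the same 2 lists gave r = 0.412 and 0.614, and for *Gad1* 0.0999 and 0.582. With group means removed these were 0.284 and 0.573 for *Gad2*, and -0.0984 and 0.658 for *Gad1*. These relations were chosen after seeing the data and carry no p. WT_Basal replicates 1 and 3, with 525 and 485 CPM of striatal markers, had *Slc32a1* at 70.2 and 78.2 CPM. Of the 10 striatal markers 0 were called in KO_OL against KO_Basal by limma, 0 had an unadjusted p under 0.05 and voom called 0, and the part of striatal tissue in the *Slc32a1* differences was not tested.

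*Gad1*, the GAD67 gene, was at 349, 385 and 396 CPM in WT_Basal, 326, 228 and 389.7 CPM in WT_OL, and 417, 363 and 394 CPM in WT_RL. In KO mice it was at 354, 355 and 389.8 CPM in KO_Basal, 355, 380.5 and 418 CPM in KO_OL, and 352, 394 and 368 CPM in KO_RL. Apart from WT_OL replicate 2, all libraries lay between 326 and 418 CPM. All groups overlapped with one another, and *Gad1* was called in no comparison of the full set of libraries. The lowest unadjusted *Gad1* p was that of WT_RL against WT_OL, with a log2 difference of 0.35 (adjusted p = 0.248, limma), which was 0.13 without WT_OL replicate 2. Without WT_OL replicate 3, *Gad1* was called in this comparison (0.52, adjusted p = 0.0169) and in KO_OL against WT_OL (0.49, adjusted p = 0.0174; 0.32, adjusted p = 0.243, with it; 0.25, adjusted p = 0.0171, with library weights). *Gad1* was then also called in WT_OL against WT_Basal (-0.46, adjusted p = 0.0201; -0.29, adjusted p = 0.194, with it). For KO_Basal against WT_Basal the *Gad1* difference was -0.04 (95% interval -0.33 to 0.25).

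*Gad2*, the GAD65 gene, was at 203, 189 and 213 CPM in WT_Basal, 151, 93.0 and 187 CPM in WT_OL, and 189.9, 175 and 248 CPM in WT_RL. In KO mice it was at 209.8, 183 and 196 CPM in KO_Basal, 165, 214 and 255 CPM in KO_OL, and 197, 203 and 198 CPM in KO_RL. The 3 WT_OL mice were below the 3 WT_Basal mice, while KO_OL spread on both sides of KO_Basal. The log2 difference of WT_OL from WT_Basal was -0.54 (95% interval -0.96 to -0.13, adjusted p = 0.0913, limma). It was -0.26 (adjusted p = 0.367) without WT_OL replicate 2, -0.76 (adjusted p = 0.0145) without WT_OL replicate 3, and -0.43 (adjusted p = 0.00447) with library weights. *Gad2* was higher in WT_RL and KO_OL than in WT_OL by 0.55 (adjusted p = 0.216) and 0.59 (adjusted p = 0.188), and by 0.26 and 0.31 without WT_OL replicate 2. Without WT_OL replicate 3 both were called (0.76, adjusted p = 0.0194, and 0.81, adjusted p = 0.0136). For KO_Basal against WT_Basal the *Gad2* difference was -0.04 (95% interval -0.46 to 0.37).

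WT_OL replicate 2 had the lowest *Gad1*, *Gad2*, *Slc32a1* and *Slc17a8* of the series, at 228, 93.0, 55.2 and 3.26 CPM. Of the 26 interneuron markers, 8 had their lowest value of the series in this library, *Reln*, *Cnr1*, *Nos1*, *Kit*, *Nkx2-1*, *Adarb2*, *Erbb4* and *Kcnc1*, and 5 had their highest, *Sst*, *Pvalb*, *Vip*, *Cck* and *Lamp5*. *Sst*, the somatostatin gene, was at 296 CPM there, and *Reln*, the reelin gene, at 26.2 CPM against a median of 74.1 CPM. The same library had the steepest GC slope (0.194), the steepest slope on transcript length (-0.195 log2 units per doubling) and the lowest library weight (0.208). The part of library composition in these values was not tested.

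**Figure D3:**
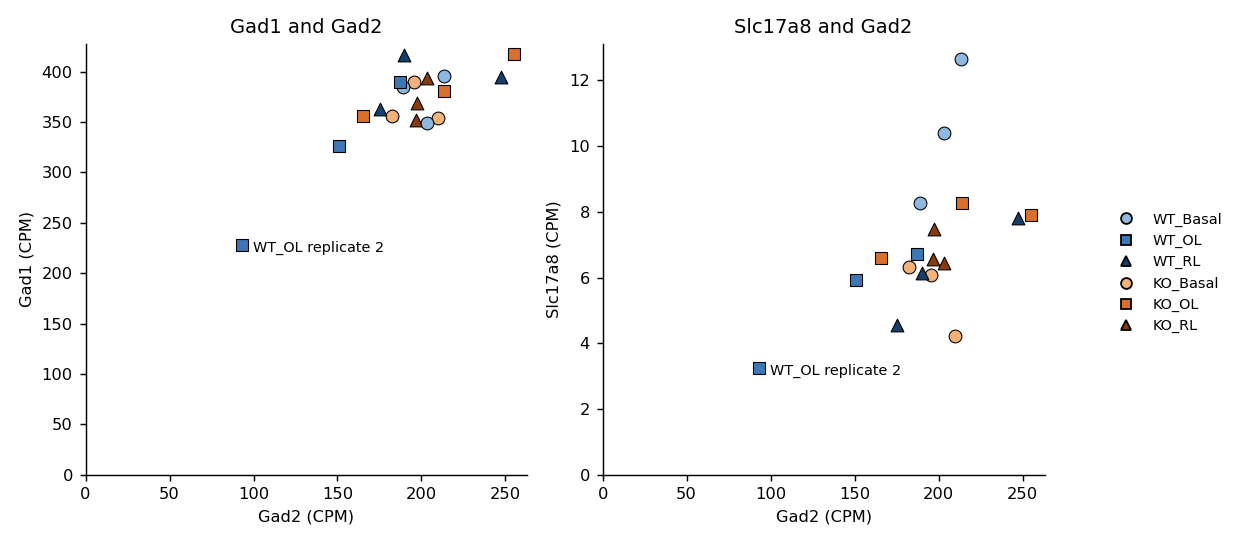
*Gad1* (left) and *Slc17a8* (right) against *Gad2*, all in CPM, in the 18 libraries, coloured by group. WT_OL replicate 2, at 93.0 CPM of *Gad2*, lies apart from the other libraries, which hold 151 to 255 CPM of *Gad2* and 326 to 418 CPM of *Gad1*.

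Read together over the comparisons, few of these genes were called, and each count is given with the share of all 15329 genes called (adjusted p under 0.05, limma) or, for groups without overlap, with the share of all genes whose groups did not overlap. Between KO_OL and KO_Basal 2 of the 5 tested genes rose, *Slc17a7* and *Slc32a1*, where 23.5% of all genes were called, and the same 2 of 5 did not overlap, against 48.8% of genes. Between KO_RL and KO_Basal 1 of 5 rose, *Slc17a7* (23.6% of genes), and 3 of 5 did not overlap (45.3% of genes). Between WT_RL and WT_Basal 1 of 5 rose, *Slc17a6* (15.7% of genes), and none of the 5 was without overlap (34.3% of genes). Averaged over genotypes 1 of 5, *Slc17a7*, rose with original learning (28.6% of genes). Each of these counts of calls lies within 1 gene of the number that the background share of 5 genes makes, so nothing particular to these genes is read from them.

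In WT_OL against WT_Basal 0 of 5 were called by limma, where 9.5% of all genes were called. By an unadjusted p under 0.05 it was 1, *Gad2*, beside 25.9% of all genes, and by limma voom on the recovered reads 0. *Slc17a7* and *Gad2* did not overlap between these groups, in opposite directions, as 28.3% of genes did not. In KO_Basal against WT_Basal 0 of 5 were called (0.0196% of all genes), 1 had an unadjusted p under 0.05, *Slc17a6*, beside 3.999% of all genes, 0 were called by voom, and 0 of 5 were without overlap (14.7% of genes). In KO_OL against WT_OL 0 of 5 were called (0.0652% of all genes), 3 had an unadjusted p under 0.05, beside 18.03% of all genes, 0 were called by voom, and 1, *Slc32a1*, did not overlap (16.5% of genes). In WT_RL against WT_OL 0 of 5 were called (0.261% of all genes), with 4 at an unadjusted p under 0.05, beside 16.4% of all genes, and 0 by voom. *Gad1*, *Gad2*, *Slc32a1* and *Slc17a6* were those 4, all with higher values in WT_RL. Without WT_OL replicate 2, the lowest library for all 3 GABA genes, the *Gad1* and *Gad2* differences were 0.13 and 0.26. That of *Slc32a1* fell to 0.21 with 1 library left out. *Slc17a6* was highest in the WT_RL libraries with *Foxb1* above 1 CPM, and its difference of 1.05 ran down to 0.13 among the alternatives. WT_OL replicate 2 enters KO_OL against WT_OL as well.

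With *Slc17a8* included, 0 of 6 were called in KO_RL against KO_OL (0.0196% of all genes), with 0 at an unadjusted p under 0.05, beside 4.81% of all genes, and 0 by voom, and 0 of 6 in KO_RL against WT_RL (0% of all genes), with 1 at an unadjusted p under 0.05, *Slc17a6*, beside 4.93% of all genes, and 0 by voom. For the difference between genotypes in the change with original learning 0 of 5 were called (0% of all genes), 2 had an unadjusted p under 0.05, beside 12.4% of all genes, and voom called 0. These were *Slc32a1* and *Gad2*, with log2 differences of 0.61 (adjusted p = 0.388) and 0.63 (adjusted p = 0.392). For the difference between genotypes in the change from original to reversal learning 0 of 5 were called (0% of all genes), 3 had an unadjusted p under 0.05, beside 7.98% of all genes, and voom called 0. For KO against WT averaged over training 0 of 5 were called (0.0326% of all genes), 1 had an unadjusted p under 0.05, beside 8.36% of all genes, and voom called 0. This was *Slc32a1*, higher in KO by 0.22 (adjusted p = 0.510), or by 0.07 without the 6 libraries rich in striatal markers.

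**Figure D4:**
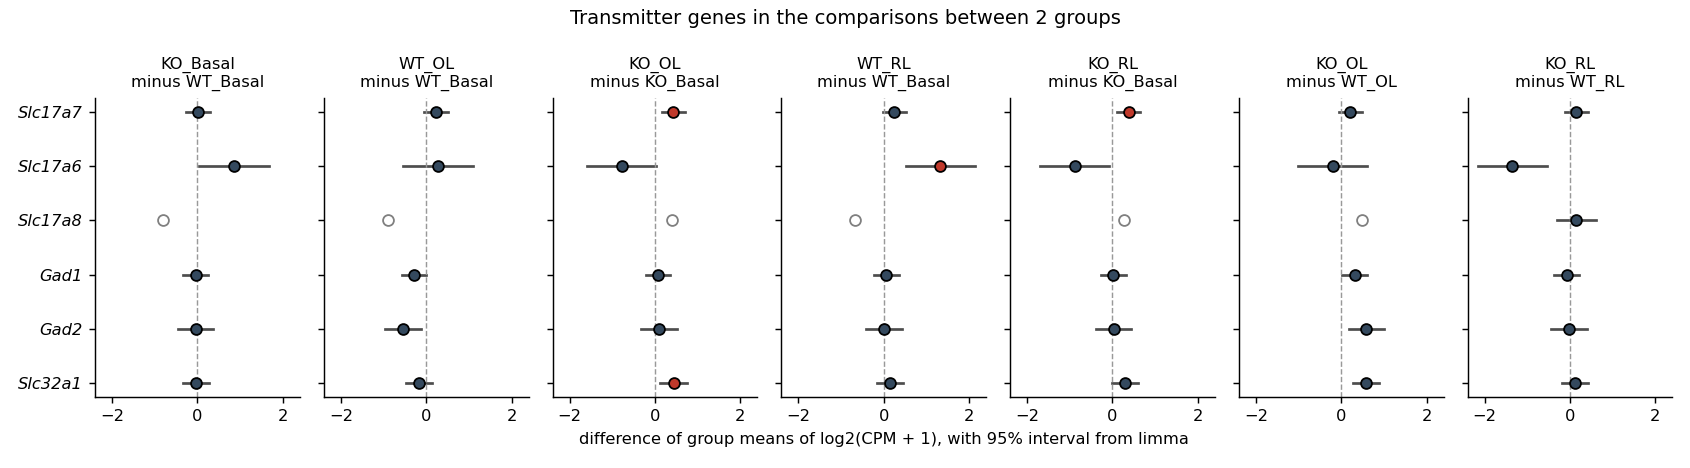
Differences of group means of log2(CPM + 1) for the 6 genes in 7 comparisons of 2 groups. Filled points carry the 95% interval from limma, with red for an adjusted p under 0.05 and dark blue otherwise, and open points without an interval are the *Slc17a8* values given as a description. The red points are *Slc17a7* at 0.43 and *Slc32a1* at 0.44 in KO_OL, *Slc17a7* at 0.38 in KO_RL, and *Slc17a6* at 1.32 in WT_RL.

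Ratios within a library compare the genes free of its scaling. VGAT against GAD, the log2 ratio of *Slc32a1* to the mean of *Gad1* and *Gad2*, was -1.92 ± 0.03 in WT_Basal and -1.92 ± 0.06 in KO_Basal (SD, n = 3). After original learning it was -1.69 ± 0.25 in WT and -1.56 ± 0.16 in KO, and after reversal learning -1.81 ± 0.14 in WT and -1.64 ± 0.22 in KO. The untrained mice were close to each other in this ratio, and the trained groups lay higher with a wider spread. It was higher by 0.30 after original learning within genotypes (exact permutation p = 0.005, the smallest this design can give, adjusted p = 0.0800 over 16 tests), by 0.24 in WT and 0.36 in KO. For reversal learning against Basal the difference was 0.20 (exact permutation p = 0.03, adjusted 0.240). Neither passed after adjustment. *Slc32a1* has 61.9% GC and the GAD genes 47.3% and 44.1%, and the GC slope separated the same libraries, so GC content and training cannot be told apart in this ratio.

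The mean of the 3 GABA genes against *Slc17a7* was -2.63 ± 0.20 in WT_Basal, -3.20 ± 0.30 in WT_OL and -2.81 ± 0.35 in WT_RL, and -2.68 ± 0.18 in KO_Basal, -2.91 ± 0.42 in KO_OL and -2.95 ± 0.12 in KO_RL (log2 ratio, SD, n = 3). Original learning against Basal gave -0.40 within genotypes (exact permutation p = 0.045, adjusted 0.240), with -0.57 in WT and -0.23 in KO. *Slc17a7* has 56.6% GC, *Gad1* 47.3%, *Gad2* 44.1% and *Slc32a1* 61.9%, so GC content and training cannot be told apart in this ratio either. Between genotypes it differed by 0.03 (exact permutation p = 0.806, adjusted 0.860). The ratio of *Gad1* to *Gad2* was 0.90 ± 0.12 in WT_Basal and 1.15 ± 0.12 in WT_OL, and between 0.88 and 0.95 in the other 4 groups. KO against WT gave -0.11 for it (exact permutation p = 0.182, adjusted 0.447). None of the 4 ratios was called between genotypes, with exact permutation p from 0.182 to 0.806 over 3 training states.

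**Figure D5:**
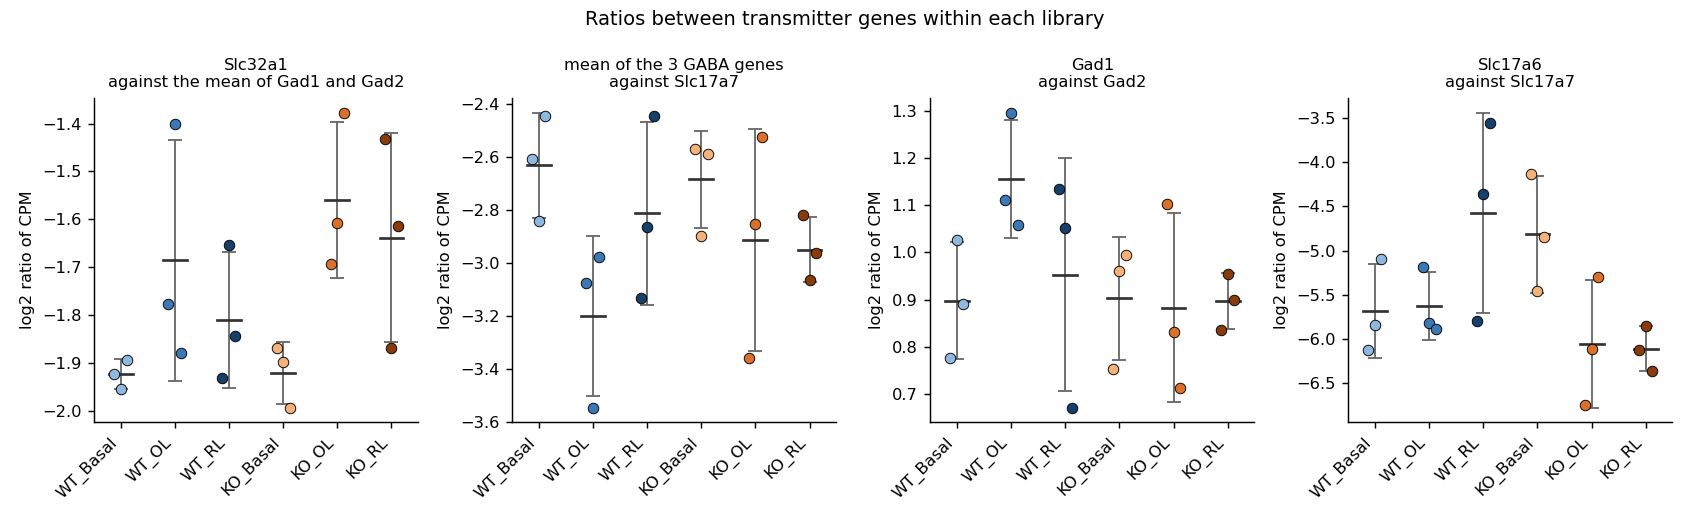
Log2 ratios of CPM within each library for 4 pairs, by group. Points are libraries, horizontal bars are means and error bars are the SD of 3 mice, and the vertical axes do not start at 0. The ratio of *Slc32a1* to the GAD genes is near -1.92 in both Basal groups and higher on average in the 4 trained groups.

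Correlations among the GABA genes passed the test for 2 of 3 pairs by r over all 18 libraries and for none by rho. With group means removed, none of the 3 pairs passed by r (permutation adjusted p = 0.0676 to 0.140). *Gad1* and *Gad2* correlated with r = 0.889 (permutation p = 0.00019, adjusted 0.00285 over 15 pairs) and rho = 0.538 (permutation p = 0.0233, adjusted 0.117), and with r = 0.830 once group means were removed (permutation adjusted p = 0.0855). Without WT_OL replicates 1 and 2, the 2 libraries farthest from the median, r was 0.479, so the high value rests on them. *Slc32a1* and *Gad2* gave r = 0.731 (permutation p = 0.00244, adjusted 0.0183) and rho = 0.668 (permutation p = 0.0036, adjusted 0.0540), or r = 0.519 without the 2 farthest. *Slc32a1* and *Gad1* gave r = 0.584 (permutation p = 0.0300, adjusted 0.0900), rho = 0.424 and r = 0.165 without the 2 farthest. *Slc17a8* gave r = 0.636 and rho = 0.602 with *Gad2*, and r = 0.368 without the 2 farthest, as a description. *Slc17a7* correlated with *Slc17a6* with r = -0.417 (permutation p = 0.0851, adjusted 0.213), or -0.667 with group means removed, and with the 3 GABA genes with r between -0.100 and 0.242. For *Slc32a1* the sign turned, from 0.242 over all libraries to -0.530 with group means removed (permutation p = 0.0388, adjusted 0.0949).

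The genes closest in pattern to each of the 6 were taken as the 5 with the highest r over the 18 libraries among 13977 other genes with a mean of at least 1 CPM. For *Slc17a7* they were *Svop* (r = 0.954), *Arf3*, *Numbl*, *Slc7a4* and *Ube2ql1* (r = 0.934). For *Slc17a6* they were *Ankrd34c* (r = 0.853), *Kcnip1*, *Rmst*, *Tnnt1* and *Plcxd2* (r = 0.828). For *Slc17a8* they were *Mansc1* (r = 0.842), *Cep83*, *Vldlr* and *Prps2*, and the other one is not named here. *Slc32a1* was closest to *Sv2c* (r = 0.896), *Ric8b*, *Peo1*, *Cacna2d2* and *Gnal* (r = 0.867). *Gad1* was closest to *Caprin1* (r = 0.941), *Pigk*, *Pds5b*, *Dhx9* and *Ssr1* (r = 0.922), and *Gad2* to *Dnm3* (r = 0.940), *Cyld*, *Xpr1*, *Col25a1* and *Rbms3* (r = 0.904). The 5 of *Slc17a7* (56.6% GC itself) had 53.1% to 60.2% GC, those of *Gad2* (44.1%) 41.3% to 45.9%, those of *Slc17a6* (42.9%) 41.6% to 54.1%, and those of *Slc32a1* (61.9%) 45.7% to 55.8%. The points of these correlations share the GC and region differences described above.

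Of 15 listed genes of the glutamate cycle, which returns glutamate from the synapse through astrocytes and mitochondria, 1 rose in WT_OL against WT_Basal and 4 rose in KO_OL against KO_Basal, where 3.88% and 11.2% of all genes rose, and 0 fell in either. *Slc1a2*, the astrocyte glutamate transporter GLT-1, rose in both, from 2523 ± 115 to 3853 ± 259.8 CPM in WT (SD, n = 3; log2 difference 0.61, adjusted p = 0.00228, limma) and from 2473 ± 92.4 to 3281 ± 96.5 CPM in KO (0.41, adjusted p = 0.00964). *Slc1a2* kept both calls after GC correction (adjusted p = 0.00560 and 0.0179). In KO mice *Slc25a22*, a mitochondrial glutamate carrier, rose by 0.51 (adjusted p = 0.00635, limma), and the aspartate aminotransferase genes *Got2* and *Got1* by 0.42 (adjusted p = 0.00230) and 0.31 (adjusted p = 0.0100). After GC correction the call of *Got2* held (adjusted p = 0.0358), and those of *Slc25a22* and *Got1* did not (adjusted p = 0.0659 and 0.0839). The median log2 difference of the 15 genes was 0.12 in WT and 0.09 in KO, beside 0.00 and -0.01 over all genes. In KO_Basal against WT_Basal and in KO against WT averaged over training, limma and voom each called 0 of the 15, and 1 had an unadjusted p under 0.05 in each.

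Of 10 genes of GABA uptake and breakdown, 1 rose in WT_OL, and 2 rose and 1 fell in KO_OL against Basal. *Pdxk*, pyridoxal kinase, which makes the pyridoxal phosphate that GAD and GABA transaminase need as cofactor, rose in both genotypes. It went from 128 ± 5.24 to 178 ± 17.3 CPM in WT (SD, n = 3; 0.47, adjusted p = 0.00409, limma) and from 126 ± 9.83 to 200.4 ± 19.0 CPM in KO (0.67, adjusted p = 0.000107, limma). Both *Pdxk* calls held after GC correction (adjusted p = 0.0324 and 0.000819). *Slc6a13*, the GABA transporter GAT2 of meninges and blood vessels, fell by 0.96 in KO (adjusted p = 0.0208), from a mean of 9.47 to 4.26 CPM over 3 mice each. In KO_Basal against WT_Basal limma and voom called 0 of the 10, with 0 at an unadjusted p under 0.05.

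Of 9 listed other vesicular transporter genes, among them those of monoamines and acetylcholine and the SV2 genes, limma and voom called 0 in WT_OL or KO_OL against Basal of the same genotype, in KO_Basal against WT_Basal and in KO against WT averaged, where 0, 2, 0 and 0 had an unadjusted p under 0.05. Of 17 listed genes of the vesicular proton pump, 0 rose and 1 fell in WT_OL, and 2 rose and 1 fell in KO_OL. *Atp6v0a1*, the neuronal a1 subunit, rose in KO by 0.43 (adjusted p = 0.0215, limma) and *Atp6v0a2* by 0.32 (adjusted p = 0.00331), *Atp6v1g1* fell by 0.42 (adjusted p = 0.0152), and *Atp6ap2*, an accessory subunit, fell in WT by 0.33 (adjusted p = 0.0443; 0.623 after GC correction). A last list held 4 genes, among them partners of GAD in its palmitoylation and attachment to vesicles. Of these 4, *Hspa8*, the constitutive heat shock cognate, rose in KO_OL to 1933 ± 98.4 CPM (SD, n = 3; 0.55, adjusted p = 0.000317, limma). *Zdhhc17*, a palmitoyl transferase, fell in WT_OL by 0.44 (adjusted p = 0.0241, limma; 0.151 after GC correction). Against the 9.5% and 23.5% of all genes called in the WT and KO comparisons, the lists gave 4 calls over 55 genes in WT and 11 calls in KO, so that neither count was above the background.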

How the data were processed

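Hippocampal mRNA libraries (TruSeq Stranded mRNA, per the labels) of 18 mice were assigned to 6 groups of 3 by their titles. The authors aligned reads to mm10 with STAR 2.5.1, normalized counts per gene by TMM in edgeR 3.12.1 (R 3.3.0) and deposited a table of log2 values for 15329 genes. The methods of the study describe CPM floored at 1, but once undone as log2(CPM + 1), 100% of the values were whole numbers of reads at a fixed CPM per read in each library (tolerance 0.1). The deposited log2 values were therefore taken as log2(CPM + 1), and the reads were recovered. Libraries of the same group differed by more than sampling noise (chi-square per gene 8.82 to 105), so none was a duplicate. The labels number the mice within groups. Nothing says that equal numbers share a litter or day, and the deviations of same-numbered libraries correlated with r from -0.64 to 0.55, so the numbers were not used as pairs.

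Groups were compared on this scale by the two-sided moderated test of limma 3.58.1 (R 4.3.3), with 1 mean per group over all 18 libraries, a variance trend, 12 residual degrees of freedom, Benjamini-Hochberg adjustment over 15329 genes and a call at an adjusted p under 0.05. Genes needed a value above 0 in 3 libraries, which all met. The fit was first tested on simulated data. Log2 differences are on the log2(CPM + 1) scale and understate changes of genes at a few CPM. Exact permutation tests were used for ratios (with 0.25 CPM added) and 100000 permutations for correlations of log2 values, marker lists entering as the mean log2 value of their genes. A test of 3 mice against 3 alone cannot give an exact p under 0.1. Positions, GC content and lengths are those of GENCODE M21, promoters those of RefSeq (GRCm38.p6). Python 3.11.15, numpy 2.4.6, pandas 2.3.3, scipy 1.17.1 and matplotlib 3.10.9 were used.

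The members and gene lists were chosen with earlier results of these data known. Named genes are the 6 members, *Ccny*, the 5 genes nearest to each member, and up to 4 called genes per pathway list by size of change. Of these, 2 genes are not reported here. Region and cell type markers such as *Foxb1*, *Tcf7l2*, *Hcrt*, *Sst* and *Pvalb* were named with their values in view. Alternatives were another pseudocount or floor, filters, only the groups compared, library weights, median-ratio scaling, limma voom on recovered reads, GC correction (loess, span 0.5), a replicate block, each library left out, and, chosen after seeing the data, leaving out the libraries with *Foxb1* above 1 CPM or striatal markers above 400 CPM.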

Additional observations from a re-analysis of the deposited data

Results flagged for a closer look

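*Slc17a8*, chosen because it was lower in WT_OL and KO_Basal than in WT_Basal, differed in opposite directions with training in the 2 genotypes. Every trained WT mouse was below every WT_Basal mouse, and every trained KO mouse was above every KO_Basal mouse. Of all genes, 28.3% did not overlap with Basal of the same genotype in WT_OL and 34.3% in WT_RL. In KO_OL and KO_RL these shares were 48.8% and 45.3%. The log2 change from Basal to OL in KO minus that in WT was 1.29, and the same difference for RL was 0.95. Neither difference was tested, because these values chose the gene, and both rest on the same 6 untrained mice. Groups of 3 are too small for a check on single mice that lie far from their group.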

How the results depend on the processing

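Counts of called transmitter genes (*Slc17a8* left out where its values chose it) stayed within 1.5 times their value in 357 combinations of a comparison and an alternative, rose past it in 9 and fell past it in 36. Library weights gave 2 in WT_OL against WT_Basal, 3 in KO_RL against KO_Basal, 3 in KO_OL against WT_OL, 3 for the genotype difference in OL against Basal, and 0 in WT_RL against WT_Basal. A floor at 1 CPM left 1 in KO_OL against KO_Basal and 0 in WT_RL against WT_Basal, and fitting only the groups compared gave 0 in WT_RL against WT_Basal and 3 in KO_RL against KO_Basal. GC correction, with or without the replicate block, left 0 in KO_OL against KO_Basal, 0 in KO_RL against KO_Basal and 0 for OL against Basal averaged over genotypes. Leaving out the *Foxb1* libraries gave 0 in KO_OL against KO_Basal, 0 in WT_RL against WT_Basal and 0 in KO_RL against KO_Basal, and leaving out the striatal ones gave 0 in these 3 and 0 for OL averaged, with fewer mice. The cause of the other changes was not tested. With 1 library left out, counts ran from 0 to 2 in WT_OL against WT_Basal, KO_OL against KO_Basal and WT_RL against WT_OL, from 0 to 3 in KO_OL against WT_OL, and from 0 to 1 in WT_RL against WT_Basal, KO_RL against KO_Basal and KO_RL against WT_RL. The replicate block alone gave 2 in KO_OL against KO_Basal and changed no other count of called members. Deviations of same-numbered libraries correlated with a median r of -0.02 (45 pairs), so the block is no pairing of mice. Over all genes, GC correction took the calls of WT_OL against WT_Basal from 595 higher and 862 lower to 191 higher and 132 lower, and library weights gave 4872.

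With 1 library left out, 3 ratios changed sign: *Gad1* to *Gad2* for RL against Basal ran from -0.021 to 0.095, *Slc17a6* to *Slc17a7* for RL against Basal from -0.34 to 0.21, and the GABA genes to *Slc17a7* for KO against WT from -0.032 to 0.108. *Slc32a1* to GAD for OL against Basal stayed between 0.23 and 0.35 (exact permutation p 0.005 to 0.015).

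At 29248557 reads or more per library, the counting error was 9.53% in the lowest *Slc17a8* library and at most 4.72% for the other transmitter genes. With 3 mice per group the standard error of a *Slc17a6* difference was 0.38 on the log2 scale, so only large changes of it could be called. P-values reflect the spread between these libraries. Fewer cells of a type and less RNA per cell cannot be told apart in bulk tissue.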
